A study of Saccharomyces cerevisiae with 23 samples.

Results

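The genes described here encode the proteins of the cytosolic ribosome of budding yeast. They were chosen by name, as every gene called RPL or RPS with a number and an optional A or B. The 5 stalk genes RPP0, RPP1A, RPP1B, RPP2A and RPP2B were added. The rule uses no measured value, but it was set with earlier results of these data known. The rule gave 137 genes with 1 probe each, among 6201 probes tested. Of these genes, 76 belong to the large subunit, 56 to the small subunit and 5 to the stalk. Together they encode 78 proteins, of which 59 come from a pair of gene copies, A and B, and 19 from a single gene.

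Ribosomal protein genes are among the most strongly transcribed genes of growing yeast, and their promoters are bound by the general factor Rap1 with Fhl1 and Ifh1, under the control of the TOR and protein kinase A pathways. When growth slows, or when cells meet heat, nutrient loss or high osmolarity, their transcripts are known to fall together with those of ribosome assembly factors, as one arm of the environmental stress response. Tup1 and Cyc8 (Ssn6) form a corepressor complex that keeps many stress genes off in growing cells, and both proteins are modified by the small protein SUMO.

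Transcript levels were measured on 23 Agilent 2-color arrays in 4 strains, unstressed (0 min) and after 30 and 60 min in 1.2 M sorbitol, which draws water out of cells. The strains were wild type, Tup1K270R, Cyc8-4KtoR and a double mutant with both sets of changes. Tup1 carried K270R and Cyc8 carried K735R, K736R, K738R and K748R, which remove lysines that accept SUMO. Every strain, wild type included, carried a His- and FLAG-tagged SMT3 (the SUMO gene), a URA3-marked TUP1 and a LEU2-marked CYC8 in place of the deleted genes, expressed from the endogenous promoters, and had his3, leu2, ura3 and met15 backgrounds. Replicates A and B were cultures of separate isolates of each genotype. On each array the sample was compared with unstressed wild type of its own replicate set, so a value below 0 on the log2 scale means less transcript than in unstressed wild type.

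Each of the 11 combinations of strain and time had 2 arrays, and 1 further array compared the unstressed wild-type cultures. In these combinations samples of replicate A were labeled with Cy3 and those of replicate B with Cy5, so replicate set, dye and reference culture cannot be told apart. On the further array wild type of replicate set B carried Cy3. For replicate B of the double mutant, some labels exchange the 30 and 60 min arrays and the dyes at 0 min. The sample titles were followed. All 137 probes lay well above background in both channels on every array, none was saturated, and 41 of the 100 brightest probes were members. Their values thus lie neither near background nor at saturation, and rest on 2 arrays a group and on the normalization. The deposited log ratios had been corrected for spatial trends in a single channel on 10 arrays, among them both wild-type arrays at 30 min, in both channels on 2 and in neither on 11. Results are therefore given for the deposited log ratios and, as "before detrending", for the background-subtracted signals normalized by loess. In 14 genes with a known osmotic stress response, the median log2 ratio of wild type was 3.95 at 30 min and 4.00 at 60 min. At 30 min limma called all 14 higher, beside 18% of all probes.

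After 30 min of sorbitol, most ribosomal protein transcripts of wild type were below their unstressed level, by a modest amount. The median log2 ratio over the 137 genes was -0.50 in replicate A, -0.25 in replicate B and -0.38 over the replicate means (SD between replicates 0.175, n = 2), while that of all probes was -0.06. The mean lay below 0 for 118 of the 137 genes, and both replicates lay below 0 for 72. By limma, with Benjamini-Hochberg adjustment over all probes and a threshold of 0.05, 33 members were called lower, which was 24.1% of them beside 19.4% of all probes, and 1 was called higher, beside 18% of all probes. The share called lower was thus near that of the whole array, whereas calls in the other direction were nearly missing among the members. A cutoff of 0.65 on the log2 scale, or 1.57-fold, was passed downward by 29 members, beside 17.5% of all probes, and by 14 of them in both replicates. With the replicate set as a block in the fit 50 members were called lower (36.5% beside 26.1% of all probes). Without replicate B 20 were (14.6% beside 14%), where wild type at 30 min has 1 array and the spread comes from the other groups.

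**Figure D1:**
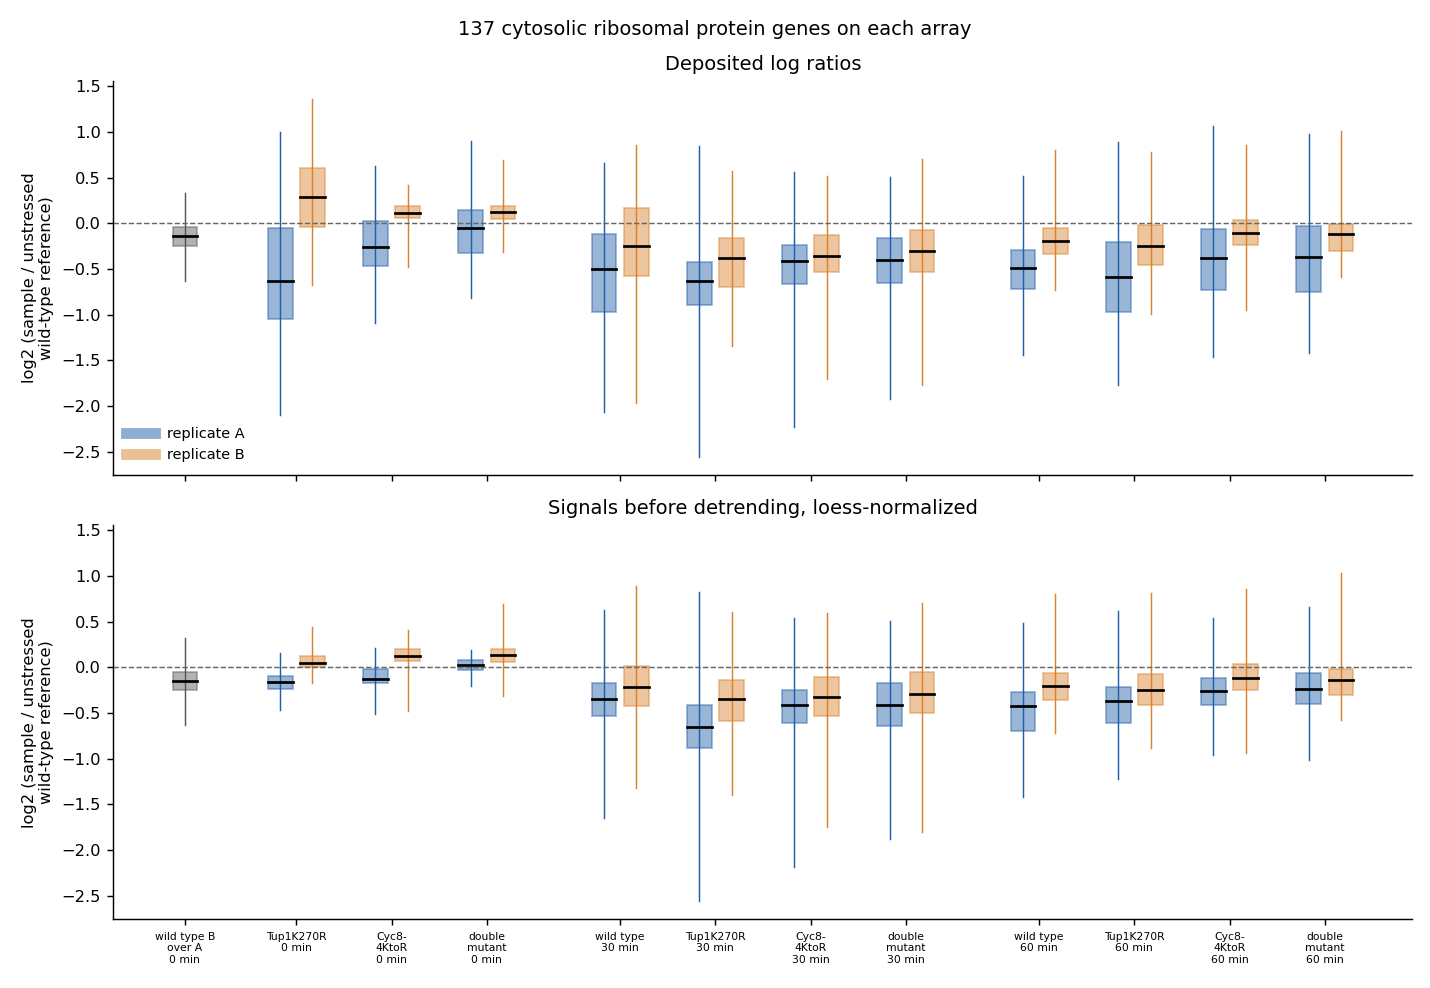
Log2 ratio of the sample over unstressed wild type (vertical axis) for the 137 ribosomal protein genes on each of the 23 arrays (horizontal axis, by strain and time), with deposited log ratios above and signals before detrending below. The line is the median, the box spans the quartiles and the whisker the lowest to the highest gene, with replicate A in blue, replicate B in orange and the wild-type culture comparison in gray. The medians of all 16 stressed arrays lie below 0 in both panels, and at 0 min the boxes of both Tup1K270R arrays and of replicate A of the other mutants are narrower before detrending.

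Before detrending, the same genes gave a clearer separation from the array as a whole. The median was -0.28 over the means of the replicates, which gave -0.35 (A) and -0.22 (B). There 71 members were called lower, 51.8% of them beside 32.7% of all probes, and 7 were called higher, beside 34.7%. Of the 33 members called lower in the deposited values, 32 were among those 71. Across the 137 genes the 2 replicates correlated at r = -0.03 in the deposited values and at 0.70 before detrending, so the order of single genes in the deposited values at 30 min is weakly determined. Genes are not independent replicates, and these correlations are descriptions.

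The proteins with the lowest values at 30 min, with copies averaged, were RPS9 (-1.17), RPL7 (-0.93), RPL20 (-0.91), RPL21 (-0.90) and RPS18 (-0.85). RPS9A encodes a small-subunit protein near the decoding centre. Its log2 ratio was -1.21 in replicate A and -1.97 in replicate B, with a mean of -1.59 (SE 0.195, adjusted p = 2.3e-05), the lowest of the 137 genes, and both arrays were far below the reference. RPL7B encodes a large-subunit protein. It gave -1.37 and -1.03, or 2.30-fold lower on average (adjusted p = 0.00037). Of the other low proteins, which belong to the large subunit except for RPS18 in the head of the small one, RPL21B gave -2.06 and -0.65 (adjusted p = 0.0245). RPL20A gave -1.57 and -0.66 (adjusted p = 0.0375), and RPS18B gave -1.62 and -0.62 (adjusted p = 0.0213). For these 3 genes both arrays were below 0, but replicate A was lower by about 1 log2 unit.

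At the other end, the highest proteins at 30 min were RPS20 (0.52), RPP0 (0.43), RPL3 (0.32), RPP2 (0.30) and RPS12 (0.27). RPS20, a protein of the small-subunit head, was the single member called higher. Its values were 0.33 in replicate A and 0.71 in replicate B (mean 0.52, adjusted p = 0.0358), and the call was lost under median centring without loess, where the mean was 0.27 with an adjusted p of 0.54. RPP0, the base of the stalk, gave 0.19 and 0.66 (adjusted p = 0.19; before detrending the mean was 0.43 with an adjusted p of 7.65e-05). RPL3, which reaches toward the peptidyl transferase centre, gave 0.65 and -0.01. RPL3, RPS12 and RPP2B were below 0 under median centring without loess, at -0.12, -0.09 and -0.08, so their sign depends on the scaling.

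In the deposited values and before detrending with loess, genes present as a single copy stood apart from those with 2 copies by their values. The median of the 19 single-copy members was -0.12 at 30 min, with 0 called lower and 1 called higher, while that of the 118 members in pairs was -0.41, with 33 called lower (28% of them beside 19.4% of all probes) and 0 called higher. At an unadjusted p under 0.05 by limma, 0 of the 19 were lower and 1 of the 118 was higher. Before detrending, the medians were -0.03 and -0.33, with 3 of 19 (RPL30, RPL32 and RPS13) and 68 of 118 called lower, 15.8% and 57.6% beside 32.7% of all probes. At 60 min they were -0.11 and -0.36, with 0 and 11 (9.32%) called lower in the deposited values beside 5.39% of all probes (RPL39 was the 1 single-copy member lower at an unadjusted p under 0.05). Under median centring without loess the medians lay closer at 60 min, at -1.09 and -1.12 in replicate A and -0.40 and -0.49 in replicate B. At 30 min they were -0.66 and -0.78 in replicate A, but 0.055 and -0.39 in replicate B. The gap thus depended on the normalization, and the difference between these gene groups was not tested. The 76 large-subunit genes had a median of -0.40 at 30 min (22 called lower, 28.9%) and the 56 small-subunit genes one of -0.38 (11 called lower, 19.6%, and RPS20 higher), beside the same 19.4% of all probes.

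The copies of one protein often differed from each other. Copies are nearly identical in sequence, and how far a probe also reads the other copy was not tested. Ranked by the deposited values, the largest difference at 30 min was in RPL27, where copy A gave -0.97 and 0.53 and copy B gave -1.25 and -1.51, for means of -0.22 and -1.38. Copy B (adjusted p = 0.00024) was thus low on both arrays, and copy A on one. RPL13A had a mean of -1.27, or 2.41-fold lower (adjusted p = 0.0012), and RPL13B one of -0.13. RPL36A had a mean of -1.24 and RPL36B one of -0.25. In RPL16 the means were -1.04 and -0.10, and in RPL21 they were -0.44 and -1.36. In each of these 5 proteins limma called one copy lower and not the other. The difference between copies was itself not tested. Before detrending the size of the difference was 0.62 in RPL27, 0.60 in RPL13, 0.75 in RPL36, 0.95 in RPL16 and 0.66 in RPL21, so the order of the pairs depended on the values used.

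Over the 59 pairs at 30 min, the median absolute difference between copies was 0.30, and 10 pairs differed by at least 0.65. The sign of the difference was the same in both replicates for 32 of 59 pairs in the deposited values and for 45 before detrending. Both copies were called lower in 4 pairs, among them RPS9, RPL24 and RPL37, 1 copy in 25 and neither in 30. Before detrending these counts were 24, 20 and 15. The means of copies A and B correlated at r = 0.15 across the 59 pairs, and at 0.21 before detrending. At 60 min the median difference was 0.16 and only RPL22 and RPL7 differed by 0.65 or more, with r = 0.45. Across strains, the difference of copy A minus copy B at 30 min in wild type correlated with that in Tup1K270R, Cyc8-4KtoR and the double mutant at 0.55, 0.58 and 0.71, and before detrending at 0.96, 0.96 and 0.96. Its sign was the same in all 4 strains for 32 of the 59 pairs, and for 48 before detrending.

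**Figure D2:**
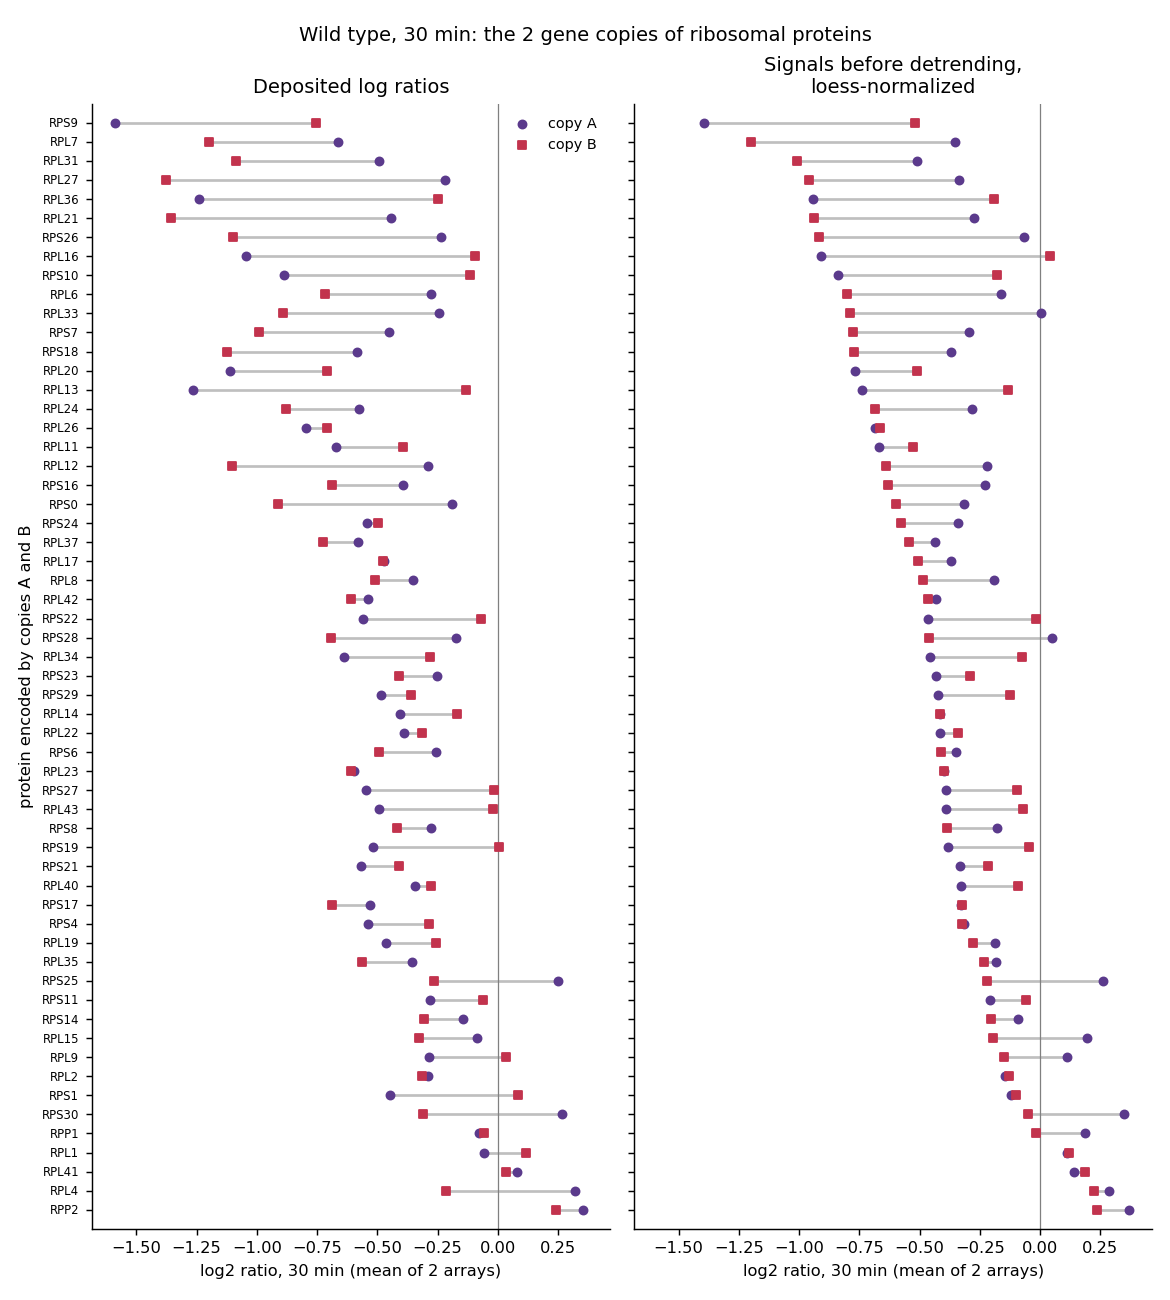
Mean log2 ratio at 30 min of wild type over its unstressed reference (horizontal axis, n = 2 arrays) for copy A (circles) and copy B (squares) of ribosomal proteins with paired genes (vertical axis), with deposited log ratios on the left and signals before detrending on the right. Gray bars join the copies, with proteins ordered by their lower copy before detrending. RPS9, RPL7 and RPL31 lead the right panel, where the copies of RPS9 lie at -1.39 and -0.52.

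By role, the stalk genes are given first. The stalk (RPP0 with the acidic proteins RPP1A, RPP1B, RPP2A and RPP2B) recruits elongation factors to the ribosome. Its median log2 ratio was 0.24 at 30 min and -0.21 at 60 min, and limma called 0 of the 5 at either time, nor did any reach an unadjusted p under 0.05. RPP2A gave -0.01 and 0.72 at 30 min and -0.21 and -0.20 at 60 min. From 30 to 60 min all 5 stalk genes were lower, by a median of 0.53 on the log2 scale, without a call in the deposited values (RPP2B alone had an unadjusted p under 0.05). Before detrending 4 of the 5 were called lower in that step, RPP0, RPP1B, RPP2A and RPP2B.

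The exit tunnel list (RPL25, RPL26A, RPL26B, RPL35A, RPL35B, RPL31A, RPL31B, RPL17A, RPL17B, RPL19A, RPL19B and RPL39), whose proteins line the tunnel or ring its mouth, was below 0 in 12 of 12 members at both times. Its medians were -0.48 and -0.51, with 4 (RPL26A, RPL31B, RPL17B and RPL19A) and 2 (RPL26A and RPL19A) called lower, or 33.3% and 16.7% of the list beside 19.4% and 5.39% of all probes. Before detrending 10 were called lower at each time, 83.3% beside 32.7% and 22.2%. RPL31B had a mean of -1.09 at 30 min and -0.59 at 60 min. RPL26A had a mean of -0.71 at 60 min (adjusted p = 0.024). The decoding list held RPS3 and RPS2 at the mRNA entry site and RPS9A, RPS9B, RPS23A, RPS23B, RPS30A and RPS30B near the decoding centre. Its medians were -0.28 and -0.09, with RPS9A and RPS9B of its 8 members called lower at 30 min, beside 19.4% of all probes. Before detrending RPS23A and RPS23B were also called lower at 30 min. RPS3 was at 0.10 and RPS30A at 0.27 at 30 min.

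The head list of 12 small-subunit genes included RPS12, RPS15, RPS20 and the copies of RPS16, RPS18, RPS19 and RPS29. Its medians were -0.38 and -0.34, with RPS16B and RPS18B called lower and RPS20 higher at 30 min. Of all probes, 19.4% were called lower and 18% higher at that time. Before detrending RPS18A, RPS19A and RPS29A were also called lower at 30 min. Of the genes for proteins that bind the 5S RNA before they join the ribosome, RPL11A was called lower at 30 min (-0.76 and -0.58, adjusted p = 0.0098), RPL11B had a mean of -0.39 and RPL5 one of 0.20. The core proteins near the peptidyl transferase centre or the tRNA sites gave -0.29 for RPL2A, -0.31 for RPL2B, 0.32 for RPL3 and 0.08 for RPL10. RPL10 had replicates of opposite sign, 0.54 and -0.38, and before detrending it was called higher at 0.47.

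RPS31, RPL40A and RPL40B, which are made as fusions to ubiquitin, had means of -0.26, -0.35 and -0.28 at 30 min. Limma called 0 of the 3, and 0 reached an unadjusted p under 0.05. RPS6A and RPS6B encode the protein phosphorylated under TOR signaling. RPS6B was called lower at 30 min, with a mean of -0.49, and RPS6A had a mean of -0.26. Among genes whose protein lowers the splicing of its own or its paralog's transcript (RPS14A, RPS14B, RPL30, RPL22A and RPL22B), all 5 means were below 0 at 30 min, from -0.56 for RPL30 to -0.15 for RPS14A, with 0 called and 0 at an unadjusted p under 0.05. RPL22B is the exception at 60 min and is described with that time point.

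At 60 min the members of wild type were still below the unstressed level by a similar amount. The median was -0.49 in replicate A and -0.19 in replicate B, or -0.32 over the means (SD between replicates 0.212, n = 2), beside -0.01 for all probes, and 126 of 137 means were below 0. Limma called 11 members lower, 8.03% of them beside 5.39% of all probes, and 1 higher, beside 7.1%. At the cutoff 17 were lower, beside 6.08% of all probes, 1 of them (RPL7A) in both replicates. Before detrending the median was -0.33, and 78 members (56.9%) were called lower, beside 22.2% of all probes, with 4 called higher, beside 24.1%. All 11 members called lower were among those 78. The replicates correlated at r = 0.81 across the members, and replicate A was the lower of the pair. With 1 array left at this time and the spread taken from the other groups, 0 members were called lower without replicate A and 4 without replicate B, beside 1.44% and 1.79% of all probes. With the replicate set as a block 34 were (24.8% beside 9.4%). With median centring in place of loess the median was -0.81, and 97 members were called lower (70.8% beside 22%).

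RPL7A had the lowest mean at 60 min, with -1.44 in replicate A and -0.73 in replicate B (mean -1.08, adjusted p = 0.014). The lowest proteins were RPL20 (-0.80), RPS10 (-0.77) and RPS18 (-0.74), and the highest RPL10 (0.37), RPP0 (0.30) and RPS12 (0.28). RPS22B gave -0.95 and -0.58 at 60 min (mean -0.77, adjusted p = 0.0079), after -0.17 and 0.03 at 30 min, so that it was lower at the later time. RPL22B was the single member called higher. Its values were -0.21 and -0.42 at 30 min and 0.52 and 0.80 at 60 min (mean 0.66, adjusted p = 0.019), while its copy RPL22A had means of -0.39 and -0.55.

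Between 30 and 60 min the median of the members moved by -0.01, while 6 genes rose, 4.38% of the members beside 7.42% of all probes, and 0 fell, beside 6.11% (limma; at an unadjusted p under 0.05 the counts were 10 and 2, the latter RPS22B and RPP2B). The 6 were RPS9A, RPL27B, RPL36A, RPL7B, RPS26B and RPL22B. RPS9A moved farthest, to 0.42 and 0.56 at 60 min, a rise of 2.08 from 30 to 60 min (adjusted p = 0.00044). RPL27B rose by 1.26 (adjusted p = 0.016), RPL22B by 0.97 (adjusted p = 0.015), RPL7B by 0.92 (adjusted p = 0.0499) and RPL36A by 0.80 (adjusted p = 0.040). Of these only RPS9A and RPL22B had a mean above 0 at 60 min. Before detrending 20 members were called higher in that step, beside 23.4% of all probes, and 16 lower, beside 25.7%, with a median of -0.10. In the deposited values 1 member was called without replicate B, higher, beside 0.839% of all probes, and with the block 8 were called higher and 2 lower, beside 12.4% and 11.3%.

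**Figure D3:**
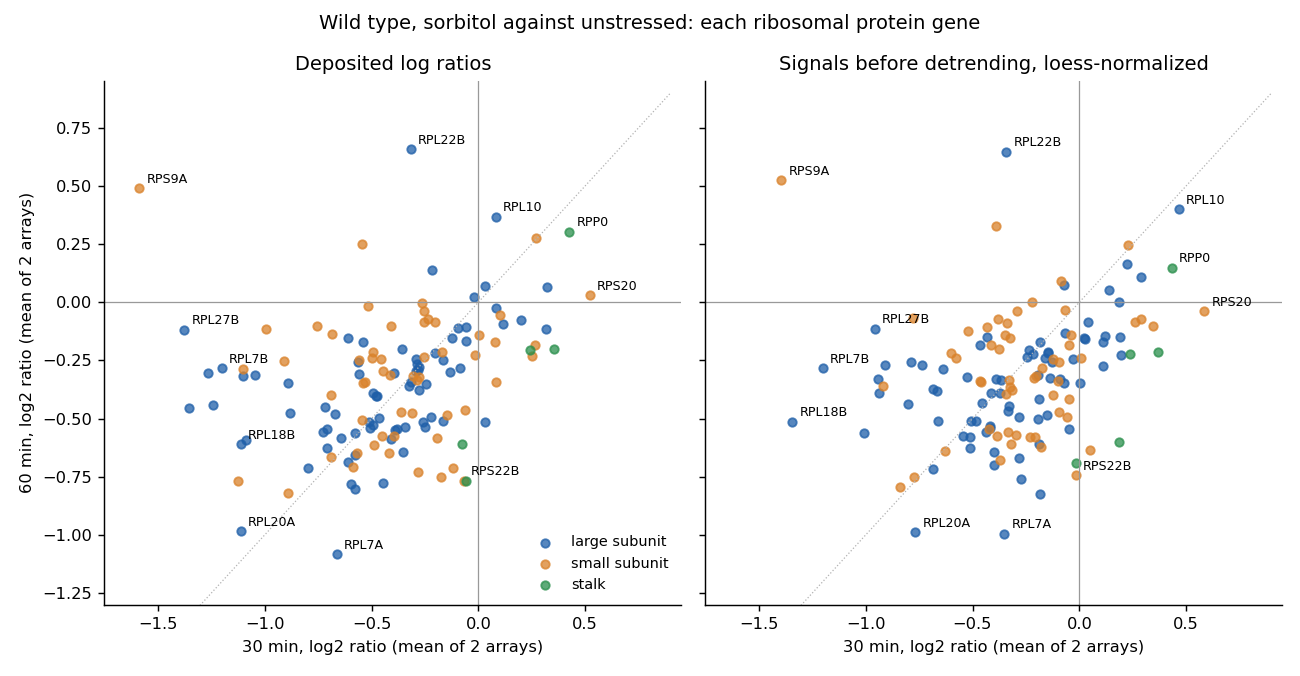
Mean log2 ratio of wild type at 60 min (vertical axis) against that at 30 min (horizontal axis) for each of the 137 ribosomal protein genes, n = 2 arrays a point, with deposited log ratios on the left and signals before detrending on the right. Most points lie below 0 on both axes, while RPS9A (-1.59 and 0.49) and RPL22B (-0.32 and 0.66) lie far above the others of like 30 min value.

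Other genes of protein synthesis, taken from lists chosen with earlier results of these data known, moved differently in time. A list of 63 ribosome biogenesis genes held assembly factors and the RNA polymerase I subunits RPA43, RPA49, RPA135 and RPA190. Of these 63 genes, 52 were called lower at 30 min, with a median of -1.31. At 60 min, however, their median was 0.21, with RRP5 called lower (-0.72) and TIF6, UTP9 and NSR1 higher. Of all probes, 19.4% were called lower and 18% higher at 30 min, and 5.39% and 7.1% at 60 min. From 30 to 60 min 40 of the 63 rose, beside 7.42% of all probes. Of 26 translation factors, 9 were called lower and CAM1 (0.57) higher at 30 min, with medians of -0.53 and then -0.06. Before detrending TIF4631, TIF4632, YEF3, TIF34 and SUI3 were also called lower at 30 min, and HYP2, TEF1, TEF4, EFT1 and EFT2 also higher. The shares of all probes there were 32.7% and 34.7%. Of 7 dedicated chaperones of ribosomal proteins, TSR2 (-2.35), the partner of RPS26, and SYO1 (-2.08), which imports RPL5 and RPL11, were called lower at 30 min. Before detrending SQT1, RRB1 and ACL4 were called lower as well. The median of the 7 was -0.77 at 30 min and 0.27 at 60 min. In contrast, the ribosomal protein genes had nearly the same median at the 2 times in the deposited values. Under median centring without loess their median went from -0.75 to -1.12 in replicate A and from -0.33 to -0.47 in replicate B. Whether the change in time differed between these lists was not tested.

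Of 14 regulators of ribosomal protein genes, 5 were called lower at 30 min (RAP1, IFH1, SCH9, TOR1 and TOR2) and 3 higher (SFP1, LST8 and TCO89). Of all probes, 19.4% were called lower and 18% higher at that time, so the share called higher was near that of the array. RAP1, which encodes the general factor at ribosomal protein promoters, gave -0.65 and -1.43 at 30 min and -1.16 and -0.82 at 60 min, with adjusted p = 0.00042 and 0.0017, and it was the one regulator called at 60 min in the deposited values. Before detrending 4 of the 14 were called lower at 60 min (RAP1, HMO1, YPK3 and TOR1) and 3 higher (SFP1, LST8 and IFH1). The shares of all probes were 22.2% and 24.1%. IFH1, a coactivator, had a mean of -0.85 at 30 min (adjusted p = 0.019) and rose by 1.30 to 60 min (adjusted p = 0.030). SFP1, an activator of ribosome genes, was at 0.74 at 30 min (adjusted p = 0.0059). Of 10 proteins bound to ribosomes, STM1, which occupies idle ribosomes, was the only one called at 30 min (-0.72), beside 19.4% of all probes called lower. Before detrending NAT1, SSB1, SSB2, ZUO1, ARD1, SSZ1 and STM1 were called lower at 30 min and EGD2 and ASC1 higher. The shares of all probes there were 32.7% and 34.7%. The 66 mitochondrial ribosomal protein genes, which are not members, had medians of -0.16 and -0.23. By limma 16 were lower and 5 higher at 30 min, beside 19.4% and 18% of all probes. At 60 min 5 were lower and 0 higher, beside 5.39% and 7.1% of all probes. At an unadjusted p under 0.05 by limma the 60 min counts were 9 and 0.

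**Figure D4:**
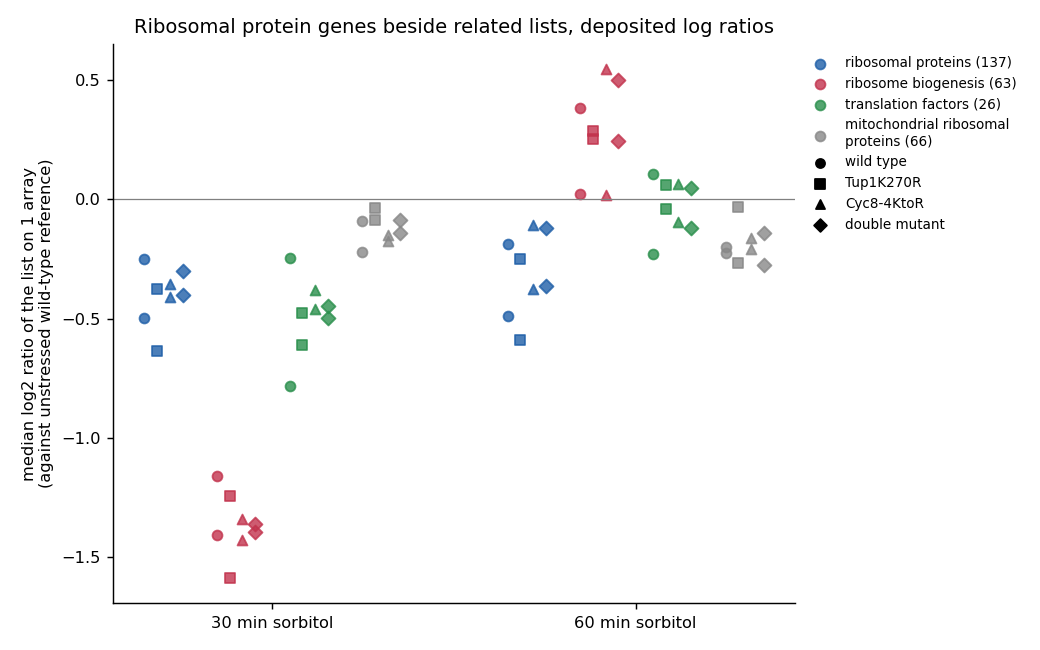
Median log2 ratio over unstressed wild type on each wild-type and mutant array (vertical axis) at 30 and 60 min of sorbitol (horizontal axis), 1 point an array, for the 137 ribosomal protein genes and 3 related lists (colors), from deposited log ratios, with shapes for strains. Ribosome biogenesis genes sit lowest at 30 min and above 0 at 60 min on every array, while the ribosomal protein genes stay below 0 at both times.

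Each mutant, compared with its own unstressed arrays, also had lower ribosomal protein transcripts at 30 min. The median of the members was -0.42 in Tup1K270R (19 called lower, 13.9% beside 10.3% of all probes), -0.32 in Cyc8-4KtoR (15, 10.9% beside 10.3%) and -0.34 in the double mutant (20, 14.6% beside 11.8%). By replicate, the medians were -0.01 and -0.67 in Tup1K270R, -0.14 and -0.46 in Cyc8-4KtoR and -0.26 and -0.40 in the double mutant. Replicate B was the lower in each mutant, against replicate A in wild type. Before detrending the replicates lay closer, at -0.48 and -0.42, -0.33 and -0.46, and -0.42 and -0.43. There 79, 69 and 82 members were called lower (57.7%, 50.4% and 59.9%), beside 27.2%, 27.4% and 28.1% of all probes. With the replicate set as a block 30, 27 and 35 members were called lower in the deposited values (21.9%, 19.7% and 25.5%, beside 15.9%, 15.9% and 17.2%). Leaving out replicate A or B, with 1 array a group in the mutant and the spread taken from the others, left 4 or 6 calls in Cyc8-4KtoR (beside 2.79% and 2.21% of all probes) and 5 or 7 in the double mutant (beside 2.69% and 3.16%). Exchanging the replicate B arrays of 30 and 60 min of the double mutant left 0, beside 0.323%. Median centring without loess put the medians of these 2 strains at -0.71 and -0.76.

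Called lower at 30 min in all 4 strains were 9 members, RPL6B, RPL7B, RPL18B, RPL24B, RPL31B, RPL36A, RPS9A, RPS24B and RPS26B, or 6.57% of the members beside 6.85% of all probes. Before detrending it was 62 members, or 45.3% beside 22.5%. Of the 9, 7 are copy B of their protein. The 62 hold both copies of several proteins, among them RPL11, RPL17, RPL20 and RPS9, and no preference for a copy was tested. RPL18B was the lowest member in each mutant's own response, at -3.30 and -1.61 in Tup1K270R, -2.38 and -1.95 in Cyc8-4KtoR and -2.30 and -2.10 in the double mutant, after -1.14 and -1.08 in wild type. Above 0 in all 4 strains, mostly without a call, were RPL10, RPP0, RPP2A, RPP2B, RPS3 and RPS20. The values of the 137 genes in wild type correlated with those in the 3 mutants at r = 0.70, 0.68 and 0.75, and at 0.95, 0.97 and 0.96 before detrending.

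In the step from 30 to 60 min, 9 members rose in Tup1K270R, 11 in Cyc8-4KtoR and 9 in the double mutant, beside 8.42%, 8.98% and 9.61% of all probes. The same 6 genes that rose in wild type were called in all 4 strains, 4.38% of the members beside 5.45% of all probes. RPS9A rose by 2.19, 2.40 and 2.12 in the mutants, with no replicate below 1.66. RPL22B rose by 1.00, 1.32 and 1.18. Before detrending 20 members rose in all 4 strains, 14.6% beside 18.6% of all probes, and RPP0 and RPP2A fell in all 4.

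The mutants were compared with wild type at each time to ask whether loss of the SUMO sites alters these transcripts. Limma called 0 of 137 members in each of the 9 comparisons, as it called 0% of all probes. At an unadjusted p under 0.05 the members numbered 12 lower and 3 higher in Tup1K270R at 0 min (10.9% beside 9.08% of all probes), and 3 higher in the double mutant at 0 min (RPL6B, RPS14B and RPS2, 2.19% beside 4.97%). At 30 min they were 4 lower in Tup1K270R (RPL5, RPL11B, RPL18B and RPS15, 2.92% beside 1.87%) and RPL11B in Cyc8-4KtoR (0.73% beside 1.56%). At 60 min they were RPL36A and RPL34B, higher in Cyc8-4KtoR (1.46% beside 1.1%), and in the other 4 comparisons 0. The names in these counts were chosen after their values were seen. Tests of whether a mutant's response to sorbitol differed from that of wild type also called 0 members by limma, with 0 to 4 members at an unadjusted p under 0.05 in each of the 6 tests.

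At 0 min the replicates differed in sign. The medians of the members in replicates A and B were -0.63 and 0.28 in Tup1K270R, -0.26 and 0.12 in Cyc8-4KtoR and -0.06 and 0.13 in the double mutant. Before detrending they were -0.16 and 0.05, -0.12 and 0.13, and 0.02 and 0.14. On the 1 array that compared them, unstressed wild type of replicate set B lay below that of set A, with a median of -0.14 and 112 of 137 members below 0. Under median centring without loess the median was -0.37. The dyes were not swapped, so culture and dye cannot be told apart there. Without replicate B, which leaves 1 array of Tup1K270R with its spread taken from the other groups, 34 members were called lower and 1 higher, beside 5.26% and 6.64% of all probes, and without replicate A 0 were, beside 0.0161% each way. The lowest members in Tup1K270R were RPS22A (-0.62 and -0.50, adjusted p = 0.29), RPS30B (-1.54 and 0.49) and RPL1B (-0.94 and -0.11). The highest were RPL41A, RPL22B and RPS9A at 0.68, 0.58 and 0.52, which before detrending were 0.02, 0.03 and 0.23. In Cyc8-4KtoR the extremes were RPL23A, RPL21B and RPL30 (-0.49, -0.44 and -0.44) and RPL14B, RPS23A and RPL9B (0.37, 0.36 and 0.34). In the double mutant they were RPL2B, RPL30 and RPL32 (-0.41, -0.36 and -0.33) and RPL18B, RPL14B and RPL9B (0.54, 0.50 and 0.43). Apart from RPL18B in the double mutant, no member named for the Cyc8-4KtoR and double-mutant cells exceeded 0.13 in size before detrending.

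At 30 min the medians of the mutant minus wild type in replicates A and B were -0.18 and -0.15 in Tup1K270R, 0.02 and -0.07 in Cyc8-4KtoR and 0.11 and -0.04 in the double mutant. Tup1K270R was thus below wild type in both replicates, and before detrending as well, at -0.28 and -0.13. The other mutants had replicates of opposite sign, and before detrending all were below 0, at -0.08 and -0.12 in Cyc8-4KtoR and -0.07 and -0.10 in the double mutant. The replicate A arrays at 30 min lay on 1 slide in all 4 strains, so the replicate A values are within a slide. In replicate B wild type and Tup1K270R shared a slide, whereas Cyc8-4KtoR and the double mutant lay on another slide than wild type. RPL18B was the lowest member in all 3 mutants, at -1.42 and -0.26 in Tup1K270R, -1.09 and -0.52 in Cyc8-4KtoR and -0.78 and -0.33 in the double mutant (limma adjusted p of 1 in each). These 3 comparisons share the wild-type arrays. RPL11B followed in Tup1K270R (-0.66) and Cyc8-4KtoR (-0.52), then RPL27A in Tup1K270R (-0.55) and RPL5 in Cyc8-4KtoR (-0.41). In the double mutant RPL7B (-0.47) and RPL14B (-0.44) came next. The highest were RPL41A, RPL41B and RPL4B in Tup1K270R (0.59, 0.46 and 0.43), and RPL13A, RPL21B and RPL12B both in Cyc8-4KtoR (0.55, 0.50 and 0.44) and in the double mutant (0.43, 0.40 and 0.39). Before detrending the last 3 lay between -0.10 and 0.06 in both mutants.

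At 60 min the medians were -0.03 and -0.02 in Tup1K270R, 0.12 and 0.10 in Cyc8-4KtoR and 0.10 and 0.06 in the double mutant. The last 2 strains were thus above wild type in both replicates, and before detrending at 0.18 and 0.10 and at 0.24 and 0.07. The wild-type array of replicate A lay on another slide than the mutants' arrays, whereas those of replicate B shared a slide. RPP0 was lowest in Cyc8-4KtoR (-0.88 and -0.16) and in the double mutant (-0.87 and -0.09), followed by RPS8A (-0.27 and -0.37) and RPL2B (-0.24 and -0.28). The highest were RPL27B (0.53), RPL18B (0.52) and RPL36A (0.52) in Cyc8-4KtoR and RPL18B (0.73), RPL31B (0.57) and RPS30A (0.53) in the double mutant. In Tup1K270R, RPS13, RPS8A and RPL4A were lowest (-0.39, -0.38 and -0.36) and RPL13A, RPL10 and RPS17B highest (0.39, 0.35 and 0.33), and before detrending all 6 lay between -0.12 and 0.05.

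**Figure D5:**
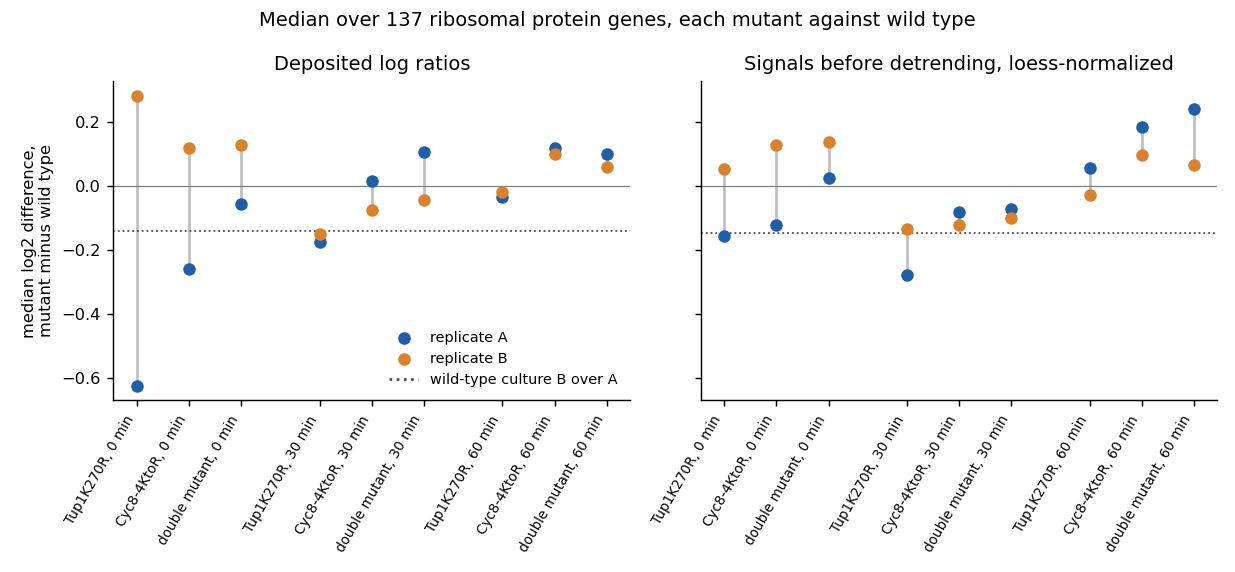
Median over the 137 ribosomal protein genes of the log2 difference between each mutant and wild type (vertical axis) at 0, 30 and 60 min (horizontal axis), 1 point a replicate (A blue, B orange), with deposited log ratios on the left and signals before detrending on the right. The dotted line is unstressed wild type of replicate set B over that of set A, from 1 array without a dye swap, at -0.14 in the deposited log ratios. The 0 min replicates lie on opposite sides of 0 in all 3 mutants in the deposited log ratios and, for the double mutant, on the same side before detrending.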

How the data were processed

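Arrays were grouped by strain and time from the sample labels, with genotypes from the study's strain list. The authors scanned the arrays and ran Feature Extraction 10.5.1.1, as the deposited files record. The deposited log10 ratios (Cy5 over Cy3) followed background subtraction, detrending and dye normalization. They were turned to sample over reference and to log2, with spots of a probe averaged. The deposited log2 values of the series table equaled them within 0.0005 and served as an alternative. The deposited intensity columns (background-subtracted, median and background signals) gave the values before detrending, with loess in limma 3.58.1 (R 4.3.3). Control and outlier spots were left out. A group-means model over 22 arrays was fitted to 6201 probes (6129 before detrending), leaving 11 residual degrees of freedom, and p-values were adjusted by Benjamini-Hochberg at 0.05. Wild-type ratios, and those of the mutants at 0 min, were tested against 0, which leaves out the spread of the reference. The methods averaged replicates and used a cutoff of 0.65 without a test.

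On simulated data for wild type at 30 min, 117 of 200 genes changed by 1 log2 unit and 198 of 200 changed by 2 were recovered, with 5 and 9 false calls among 6201 probes. Recovery of shifts below 1 log2 unit, such as the members' median at 30 min, was not tested. Whether the counts of recovered genes and false calls hold for arrays that share a reference culture and dye was not tested. The replicate letter marks a shared reference culture and dye. The group-means fit did not use it to pair samples, so its calls and adjusted p-values leave that pairing out. The alternative fit with the replicate set as a block used it. Deviations of same-letter arrays correlated between -0.08 and 0.84 over 55 pairs of groups, and 52 exceeded 0.1. Named genes were the proteins lowest and highest in wild type at 30 min (5 each) and 60 min (3 each), the 3 lowest and highest members of each mutant comparison, the 5 pairs of copies that differed most, the role lists, and members called against the direction of the median. Members and lists were chosen with earlier results of these data known. Genes from YDR211W to YDR261C were left out. No sequence is shown. Some single-gene results are not reported here.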

Additional observations from a re-analysis of the deposited data

Results flagged for a closer look

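In the deposited values at 60 min, the members' median was below wild type in both replicates of Tup1K270R and above it in both replicates of Cyc8-4KtoR and of the double mutant. The median difference was -0.166 between Tup1K270R and Cyc8-4KtoR and -0.141 between Tup1K270R and the double mutant on the log2 scale. These differences were not tested, the 3 comparisons share the wild-type arrays, and before detrending the replicates of Tup1K270R differed in sign (0.06 and -0.03). The Tup1K270R median was above 0 under the 4 other normalizations, at 0.015, 0.00817, 0.0102 and 0.0254.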

How the results depend on the processing

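The members' medians in wild type at 30 and at 60 min and in each strain's own response were below 0 under every alternative, whereas the counts of calls depended on the starting values. Counts are given of members called lower in wild type at 30 and 60 min, then of those called in either direction from 30 to 60 min. The later counts of each set are members called lower in the 30 min responses of Tup1K270R, Cyc8-4KtoR and the double mutant. The counts were 71, 78, 36, 79, 69 and 82 before detrending, and 67, 97, 8, 66, 55 and 66 under median centring without loess. With the loess fitted without the members they were 76, 93, 22, 86, 77 and 87, and with normexp 68, 76, 32, 76, 64 and 79. With 1 value per protein they were 18, 7, 1, 9, 9 and 14, over fewer values. Of all probes, 32.7% and 22.2% were called lower in wild type at 30 and 60 min before detrending, and 32.7% and 22% without loess. These shares were 33.3% and 23.1% with the loess fitted without the members, and 31.9% and 19.9% with normexp.

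The replicate block, which pairs the arrays of a replicate set, gave 50, 34, 10, 30, 27 and 35, counted in the same way. It changed no call in the mutant comparisons, where limma called 0 members. The block with values from before detrending, an alternative chosen after seeing the data, gave 91, 103, 71, 106, 100 and 98, and 2 in the double mutant at 0 min. There 37.5% and 29.6% of all probes were called lower in wild type at 30 and 60 min. Leaving out a replicate, so that the spread of a lone array is taken from the other groups, gave 20 to 24, 0 to 4 and 1 to 7 in wild type, 4 to 6 in Cyc8-4KtoR, 5 to 7 in the double mutant and 0 to 35 in Tup1K270R at 0 min. Requiring both replicates past the cutoff left 14 of 29 and 1 of 17 members. For the double mutant's own response, exchanged 30 and 60 min arrays left 0 calls and a turned 0 min array 13, with a median of -0.208.

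Medians moved by more than the replicate spread as follows, in the order before detrending, without loess, loess without the members, and normexp. The 60 against 30 min step of wild type gave -0.103, -0.263, -0.131 and -0.0871. At 30 min Tup1K270R against wild type gave -0.213, -0.329, -0.281 and -0.203, Cyc8-4KtoR -0.0948, -0.151, -0.124 and -0.0812, and the double mutant -0.0802, -0.107, -0.112 and -0.081, the last 2 strains thus below rather than above 0. At 60 min they gave 0.015, 0.00817, 0.0102 and 0.0254 (above rather than below 0), 0.141, 0.256, 0.182 and 0.151, and 0.155, 0.301, 0.188 and 0.164. Without loess the median was -0.81 for wild type at 60 min, 0.137 for the double mutant at 0 min, and -0.706 and -0.756 for the own responses of Cyc8-4KtoR and the double mutant, with -0.538 for the latter under loess without the members. With slide as a random block the 60 against 30 min step was at -0.0382 and the 60 min medians at -0.124, 0.0279 and 0.0374. With 1 value per protein that step was at 0.0362 and Cyc8-4KtoR at 60 min at 0.0964. Exchanged arrays put the double mutant at 60 min at 0.0179. Leaving out a replicate gave 0.00909 to 0.0176 for the 60 against 30 min step, -0.177 to -0.149 and -0.0743 to 0.0169 for Tup1K270R and Cyc8-4KtoR at 30 min, and -0.0333 to -0.0203, 0.0985 to 0.12 and 0.0594 to 0.101 for the mutants at 60 min. The causes were not tested. The series table values and the filter on dim probes changed no count by more than 1.5 times.

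Of 1320 values of 60 named members under the alternatives, 979 kept direction and side of the threshold, 23 lost the call, 318 gained one and 0 were called in the other direction. With 2 arrays a group, precision is limited by their number.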
